A study of Mus musculus with 4 samples.

Results

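SOX3 binding sites were examined around 45 genes of the BMP and TGF-beta pathway in neural progenitor (NP) cells. The genes were taken by name from a list chosen with earlier results of these data known, by a rule that uses no measured value, and comprised 19 ligands, 10 receptors, 8 Smads, 6 extracellular antagonists, the pseudoreceptor gene Bambi and the protease gene Bmp1. All 45 were found in the annotation, among 22367 protein-coding genes. For each gene, every SOX3 peak that overlapped the gene body plus 50 kb to each side (its window) was taken. The windows held 51 of 18816 peaks of replicate 1, 20 of 8096 peaks of replicate 2 and 101 of 40543 peaks of replicate 3.

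The cells were R1 mouse embryonic stem (ES) cells, with their own unmodified SOX3, kept as a monolayer for 4 days in N2B27, which has no serum and lets ES cells turn into NP cells. Chromatin was immunoprecipitated with a SOX3 antibody (R&D hSOX3, AF2569) in 3 biological replicates and sequenced (ChIP-seq). An input DNA sample of the same cells, made with no antibody, was the background of the authors' peak calling and is not analysed here. All libraries came from 1 ES cell line at 1 time and in 1 condition, so the data describe where SOX3 was found and hold no contrast between treatments. The lists give no expression values, so the identity of the NP cells could not be checked with marker genes, and library depth is unknown because they hold no counts of reads.

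BMPs, TGF-betas, activins, Nodal and GDFs are secreted ligands of 1 superfamily. They bring together type I and type II receptor kinases, which phosphorylate receptor Smads. These join Smad4 and regulate genes in the nucleus, while secreted antagonists such as Noggin, Chordin, Follistatin and the Lefty proteins hold the ligands or their receptors back. Low BMP and low Nodal signalling are textbook conditions for neural induction. SOX3 is a SOXB1 transcription factor of early neural progenitors that binds short A and T rich words in DNA.

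Each peak carries a score, the negative log10 of its p-value from MACS multiplied by 10, with 50 as the lowest value. Scores depend on library depth, so each is given with its percentile among the peaks of its own list. Peaks that overlapped by at least 1 bp were merged into a site, and a site with a stretch covered by a peak of every replicate is called a 3-replicate site. There were 5343 such sites among 51271 sites in the genome. Positions are on mm9 and distances run to the nearest annotated start of the gene from the middle of the stretch of the site that the most replicates covered.

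SOX3 sites with a peak in every replicate lay in the windows of 11 of the 45 genes (24.4%, 95% Wilson interval 14.2 to 38.7), against 28.7% of all protein-coding genes by the same rule. The share was near the background. The 11 genes were the ligand gene Gdf3, the receptor genes Bmpr1b, Acvr1 and Tgfbr1, the Smad genes Smad1, Smad3 and Smad7, the antagonist genes Fst, Lefty1 and Lefty2, and Bmp1. Their windows held 14 different 3-replicate sites, 7 of which were nearer to the start of a gene that is not in the list. Among the 45 genes the Lefty locus had the most 3-replicate sites. It carried 4 of the 14 sites, among them the pair with the highest scores.

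Sequences of 3 of the 4 sites at the Lefty locus are given here because this locus held the most 3-replicate sites among the 45 genes, in the reference genome and not as read from the cells. Letters in capitals mark words on either strand. They are AACAAA and GACAAA, each also in its form with a final T, which are forms of the word that SOX proteins bind. The POU octamer words ATGCAAAT and ATGCTAAT and a longer joined SOX/POU word are marked too. The SOX core counted below is not marked. The stretches are the part of each site covered in every replicate, or at most 300 bases around its middle.
Lefty2 upstream site, chr1:182818846-182819145, plus strand: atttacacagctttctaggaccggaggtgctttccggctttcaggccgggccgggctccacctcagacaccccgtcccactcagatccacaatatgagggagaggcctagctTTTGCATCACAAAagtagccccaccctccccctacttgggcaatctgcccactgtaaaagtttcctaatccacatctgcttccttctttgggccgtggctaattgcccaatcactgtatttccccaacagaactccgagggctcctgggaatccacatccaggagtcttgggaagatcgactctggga
Lefty1 upstream site, chr1:182854883-182855182, plus strand: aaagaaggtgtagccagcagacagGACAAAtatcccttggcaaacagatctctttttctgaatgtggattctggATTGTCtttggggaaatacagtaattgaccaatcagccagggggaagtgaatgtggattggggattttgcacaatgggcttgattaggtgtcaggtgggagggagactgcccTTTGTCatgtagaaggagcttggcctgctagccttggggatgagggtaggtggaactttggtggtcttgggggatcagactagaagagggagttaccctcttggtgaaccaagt
Lefty1 promoter site, chr1:182863859-182864158, plus strand: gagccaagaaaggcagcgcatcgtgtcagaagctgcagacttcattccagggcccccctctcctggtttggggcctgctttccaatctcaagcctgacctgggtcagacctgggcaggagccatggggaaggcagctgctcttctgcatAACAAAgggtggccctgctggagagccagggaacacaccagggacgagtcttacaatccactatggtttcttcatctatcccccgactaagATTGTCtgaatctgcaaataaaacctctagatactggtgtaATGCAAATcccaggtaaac

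Sequences of the sites at the receptor genes are shown because they include each of the sites that lay within the body of a gene of the list. They are marked in the same way.
Bmpr1b internal start site, chr3:141594465-141594719, plus strand: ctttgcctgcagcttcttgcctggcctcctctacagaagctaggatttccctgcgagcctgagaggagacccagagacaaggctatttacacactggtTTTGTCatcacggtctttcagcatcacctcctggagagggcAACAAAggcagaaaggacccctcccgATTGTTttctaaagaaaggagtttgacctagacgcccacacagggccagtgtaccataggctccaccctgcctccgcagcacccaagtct
Bmpr1b intron site, chr3:141512163-141512462, plus strand: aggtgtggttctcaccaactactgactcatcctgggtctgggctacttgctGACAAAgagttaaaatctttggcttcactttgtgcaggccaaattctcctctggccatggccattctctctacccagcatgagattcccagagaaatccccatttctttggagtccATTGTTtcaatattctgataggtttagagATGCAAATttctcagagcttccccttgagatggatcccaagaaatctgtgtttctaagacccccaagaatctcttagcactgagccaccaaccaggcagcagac
Tgfbr1 downstream site, chr4:47462807-47463106, plus strand: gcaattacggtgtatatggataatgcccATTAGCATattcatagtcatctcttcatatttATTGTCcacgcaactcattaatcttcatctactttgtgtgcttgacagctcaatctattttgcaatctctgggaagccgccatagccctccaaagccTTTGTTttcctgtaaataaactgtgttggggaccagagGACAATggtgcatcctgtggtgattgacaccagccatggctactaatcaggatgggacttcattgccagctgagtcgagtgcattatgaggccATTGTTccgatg
Acvr1 intron site, chr2:58386090-58386269, plus strand: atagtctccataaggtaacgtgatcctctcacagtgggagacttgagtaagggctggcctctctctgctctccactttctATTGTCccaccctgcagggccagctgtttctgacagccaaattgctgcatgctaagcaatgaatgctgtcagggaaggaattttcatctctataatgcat

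The ligand site, the Bmp1 site and the Smad site with the highest percentile in its weakest replicate complete the set. The site of Smad7 is on a chromosome from which no sequence is printed.
Gdf3 upstream site, chr6:122574578-122574877, plus strand: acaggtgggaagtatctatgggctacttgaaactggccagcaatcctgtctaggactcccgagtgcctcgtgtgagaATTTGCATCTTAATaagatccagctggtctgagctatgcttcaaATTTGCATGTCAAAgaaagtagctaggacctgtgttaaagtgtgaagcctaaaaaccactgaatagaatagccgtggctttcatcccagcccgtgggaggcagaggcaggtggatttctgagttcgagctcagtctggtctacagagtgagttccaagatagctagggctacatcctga
Smad3 upstream site, chr9:63651102-63651375, plus strand: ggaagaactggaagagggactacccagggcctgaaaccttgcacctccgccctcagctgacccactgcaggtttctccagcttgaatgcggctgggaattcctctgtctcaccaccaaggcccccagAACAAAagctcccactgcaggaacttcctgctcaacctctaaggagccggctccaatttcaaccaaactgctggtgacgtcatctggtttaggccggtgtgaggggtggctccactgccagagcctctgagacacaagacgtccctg
Bmp1 upstream site, chr14:70944929-70945098, plus strand: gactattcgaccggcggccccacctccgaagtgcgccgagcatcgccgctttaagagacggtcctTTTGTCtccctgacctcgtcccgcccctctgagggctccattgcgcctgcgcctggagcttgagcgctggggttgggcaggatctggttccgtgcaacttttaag

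The exact words were counted in 200 bp around the middle of each site. AACAAA or AACAAT occurred in 7 of the 14 sites (50%, interval 26.8 to 73.2), against 49.3% of all 3-replicate sites and 8 of 28 windows of the same length 2000 bp to each side (28.6%). GACAAA or GACAAT occurred in 9 of the 14 (64.3%, 38.8 to 83.7), against 34.3% of all 3-replicate sites and 6 of 28 flanking windows (21.4%). The lower end of that interval lay above the share of all sites, but the 14 sites are few, this word was among 5 kinds that were counted, and it was chosen with these data in view. The SOX core is ACAA, then A or T, then A or G. It can overlap these words, so its count is not apart from theirs, but not each of them holds it. It was found in 11 of 14 sites (78.6%) and in 73.9% of all. The octamer was present in 2 of 14 sites (14.3%) and 8.89% of all, and the joined word in 2 (14.3%) and 6.55% of all. Of the 28 flanking windows of the list, 0 held either of these last words.

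Sites differed in which words they held, counted in the central 200 bp unless stated. The Gdf3 site had 2 octamers on the minus strand, each overlapping a joined word, and no SOX core, whereas the Tgfbr1 site had 4 SOX cores and, outside the central 200 bp, an octamer. The Bmpr1b intron site had 3 SOX cores together with an octamer. The Lefty1 promoter site held the word AACAAA, the form of the other SOX word with a final T and, outside the central 200 bp, the octamer. The Smad1 site and the Lefty2 site 42170.5 bp upstream held none of the words in their central 200 bp. A match is a run of letters and does not show that SOX3 contacted it.

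**Figure D1:**
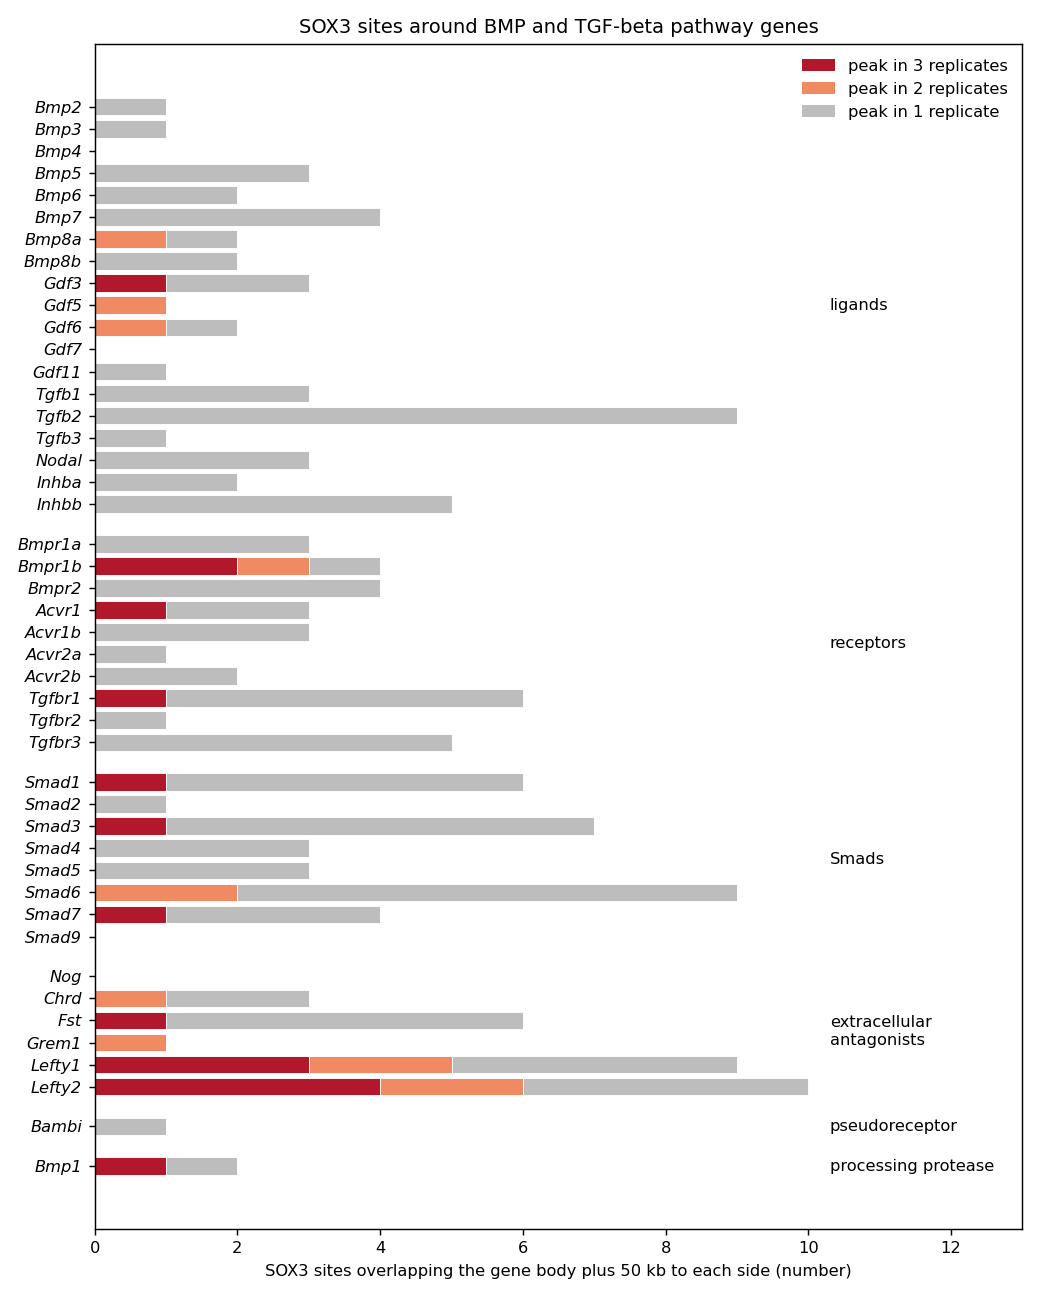
Number of SOX3 sites (x axis) overlapping each gene body plus 50 kb to each side, for the 45 genes by class (y axis), with the colours for a peak in 3, 2 or 1 replicates. Lefty2 has 4 and Lefty1 has 3 sites with a peak in 3 replicates, and Bmp4, Gdf7, Smad9 and Nog have no peak.

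Among the ligands, 1 of 19 genes had a 3-replicate site (5.26%, interval 0.935 to 24.6). This share stood below the background of 28.7% at 50 kb. By nearest start it was 3 of 19 (15.8%), near the 16.5% of all genes, and without replicate 1 it was 3 of 19 against 37.3%. The gene was Gdf3, a Nodal-related ligand of pluripotent cells. Its site (chr6:122574498-122575042) lay 14623 bp upstream of the Gdf3 start. It was nearer to another gene, with the start of Dppa3, a marker of pluripotent and germ cells, at 1700 bp. The scores were 458.3, 246.78 and 520.23 in replicates 1, 2 and 3, at percentiles 95.9, 89.6 and 98.3. All replicates placed it in the top part of their lists.

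Peaks in 2 replicates were found at Bmp8a, Gdf5 and Gdf6, ligands of the BMP branch. The Gdf5 site lay 1286 bp upstream of its start, with scores of 84.4 in replicate 1 and 54.37 in replicate 3. The Bmp8a site was intronic, with scores of 52.19 in replicate 2 and 94.26 in replicate 3. At Gdf6 the site lay 19770 bp upstream, with 70.62 and 68.31 in the same replicates, and 89.0% of its 50-base stretches occur in more than 1 place in the genome. These scores were close to the threshold of 50 in at least 1 replicate, apart from Gdf6.

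The windows of Bmp4 and Gdf7 held no peak in any replicate. Both encode ligands known for their part in patterning the dorsal neural tube. With Smad9 and Nog, 4 of the 45 genes had no peak, against 2111 of all 22367 protein-coding genes, a similar share. The other 13 ligand genes, Bmp2, Bmp3, Bmp5, Bmp6, Bmp7, Bmp8b, Gdf11, Tgfb1, Tgfb2, Tgfb3, Nodal, Inhba and Inhbb, had 1 to 9 sites, each with a peak in 1 replicate only. Tgfb2 had 9 of them and the highest score there was 112.04, in a peak that is 94.7% multi-copy. Nodal, the ligand that Lefty proteins block, had sites at -4436, -1802 and +5059 bp with scores of 73.85 in replicate 3, 50.35 in replicate 1 and 53.27 in replicate 1. No replicate saw the Nodal site of another.

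Of the receptors, 3 of 10 genes had a 3-replicate site (30%, interval 10.8 to 60.3), near the background of 28.7%. Bmpr1b, a type I BMP receptor, held 2, both inside the gene. The site named in its sequence by the internal start lay 105 bp upstream of a start (chr3:141594419-141594772), and this start is an internal one, since the site lay 237796.5 bp inside the gene as counted from its outermost start. Scores were 407.21, 172.91 and 341.98, at percentiles 95, 82.2 and 96.9. The other site (chr3:141512123-141512574) lay in an intron, 82159.5 bp downstream of the nearest Bmpr1b start and 59496.5 bp from the nearer start of Unc5c, with 314.81, 231.42 and 441.56 at percentiles 92.3, 88.4 and 97.8. Which of the pair scored higher depended on the replicate, the internal start in replicate 1 and the intron in replicates 2 and 3.

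Tgfbr1, the type I receptor of TGF-beta, had a site 63869 bp downstream of its start and beyond its end (chr4:47462691-47463241). The nearest start was that of Alg2 at 20685 bp. Scores of 282.81, 271.6 and 476.11 put it at percentiles 91.0, 91.1 and 98.0, the highest value for its weakest replicate of any receptor site. Acvr1, a type I receptor for BMPs, had an intronic site 4669.5 bp downstream of a start (chr2:58386071-58386325). It scored 77.83, 60.89 and 73.5 at percentiles 50.6, 27.9 and 64.7. Each lay below the median of all 3-replicate sites in its replicate (82.6, 65.1 and 92.8).

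The remaining receptor genes, Bmpr1a, Bmpr2, Acvr1b, Acvr2a, Acvr2b, Tgfbr2 and Tgfbr3, had only sites with a peak in a single replicate. Tgfbr3, the co-receptor betaglycan, had 5 such sites. Bmpr1b also had a site in replicates 1 and 3, with scores of 61.65 and 104.64, downstream of the start by 111937.5 bp.

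Smad1, Smad3 and Smad7 made 3 of 8 Smad genes with a 3-replicate site (37.5%, interval 13.7 to 69.4, which spans the background of 28.7%), and in none was the site within the gene or within 20 kb of it. Smad3 carries TGF-beta, activin and Nodal signals. Its site (chr9:63651096-63651428) was intergenic, 45437.5 bp upstream, and its scores were 138.87, 112.27 and 153.38 at percentiles 75.4, 67.0 and 90.5. Smad1 carries BMP signals. The site in its window (chr8:81818570-81819030) lay 104528 bp downstream of its start and 34 bp from the start of Mmaa, with 95.17, 126.98 and 173.32 at percentiles 60.6, 72.5 and 92.0.

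Smad7, an inhibitory Smad, had a site 59750 bp downstream (chr18:75594106-75594494) in an exon of Ctif, although the Smad7 start was the nearest. Scores there were 161.05, 92.74 and 154.61 at percentiles 79.9, 57.3 and 90.6. The percentiles of the 3 Smad sites lay below those of the Bmpr1b and Tgfbr1 sites in each replicate. Smad6, the other inhibitory Smad, had no 3-replicate site but 9 sites, 2 of them with peaks in a pair of replicates. Its site 31 bp from the start scored 129.37 in replicate 1 and 56.16 in replicate 3, and an intronic site scored 92.35 in replicate 2 and 111.66 in replicate 3.

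Smad2, Smad4 and Smad5 had only sites with a peak in a single replicate, and Smad9 had no peak. The peak 103 bp upstream of Smad4, the common partner Smad, scored 279.02 in replicate 1, at percentile 90.8, and had no counterpart in replicates 2 and 3. It was the highest score among the 33 sites of replicate 1 alone in the windows of the 45 genes. Peaks in replicate 1 alone also lay 289.5 bp upstream of Smad2, with 61.13, and 9.5 bp upstream of Smad5, with 60.34. In Smad7 the promoter peak was in replicate 3 alone, with 80.98.

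Among the 4 classes with more than 1 gene, and at this width of the window, extracellular antagonists had the highest share, 3 of 6 genes (50%, interval 18.8 to 81.2, which spans the background of 28.7%). The 3 genes came from 2 loci, since Lefty1 and Lefty2 are neighbours whose windows overlap by 64.1 kb. Without replicate 1 the count was 5 of 6, with Chrd and Grem1 added, against 37.3% of all genes. It stayed at 3 without replicate 2 and without replicate 3. Of the 134 sites in the windows of the list, 8 lay in more than 1 window, all of them at Lefty1 and Lefty2. Lefty proteins bind Nodal and its co-receptors and are themselves induced by Nodal signalling. Lefty2 had 4 and Lefty1 had 3 sites of 3 replicates. Of all protein-coding genes, 3.19% had at least 3 such sites and 1.35% at least 4.

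The Lefty1 promoter site (chr1:182863666-182864304) was 1144.5 bp upstream of its start, with scores of 1020.5, 660.2 and 1187.88. These ranked 159, 124 and 136 in the lists, at percentiles 99.2, 98.5 and 99.7. The next site (chr1:182854764-182855413), 10120.5 bp upstream of Lefty1, scored 824.1, 569.51 and 1262.86 and ranked 239, 174 and 116. The promoter site ranked above it in replicates 1 and 2 and below it in replicate 3. Both were above percentile 97 in every replicate.

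Upstream of both genes, a site 4243 bp from the Lefty2 start (chr1:182818673-182819198) scored 472.96, 234.5 and 483.25 at percentiles 96.1, 88.8 and 98.1. A further site (chr1:182780696-182781362) lay 42170.5 bp upstream of Lefty2 and 213.5 bp from the start of BC031781, with 246.5, 135.26 and 141.44. Peaks in replicates 2 and 3 also lay 132.5 bp upstream of the Lefty1 start, with 133.3 and 227.42 at percentiles 74.3 and 94.6, and replicate 1 had none there. The single peak within 2000 bp of a Lefty2 start scored 59.26 in replicate 3. It lay 478 bp upstream of an internal start, and so inside the annotated gene. Among the promoter sites of Lefty1 and Lefty2, only the Lefty1 site 1144.5 bp upstream had a peak in every replicate.

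**Figure D2:**
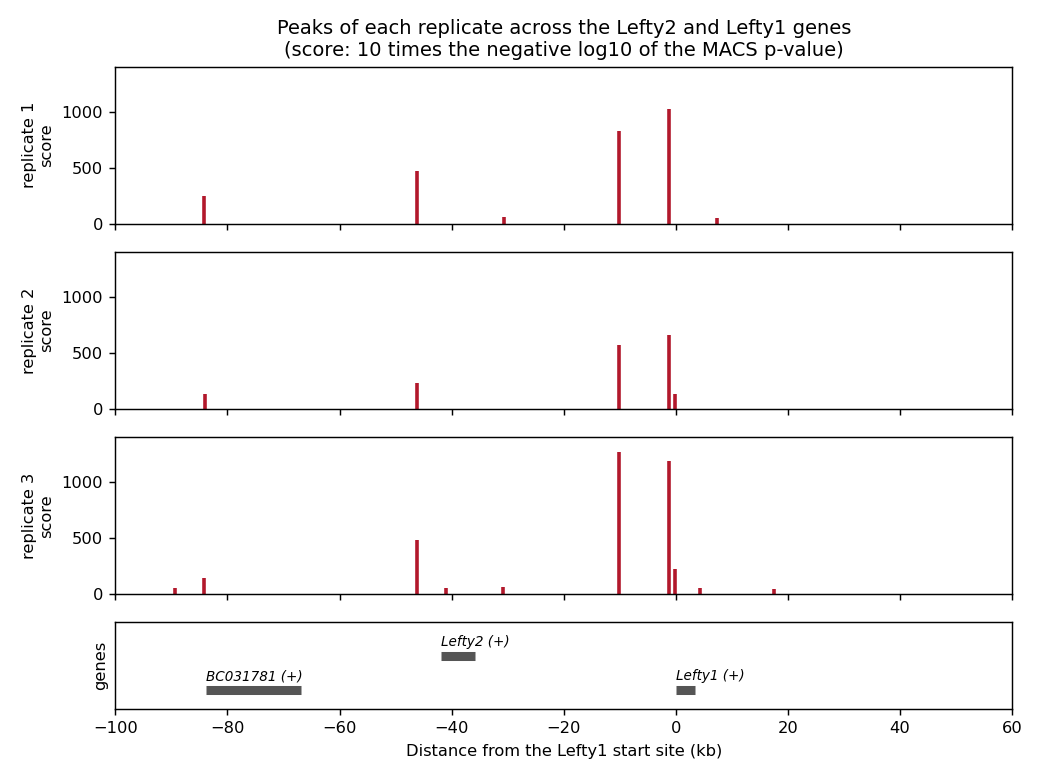
Score of each peak (y axes, no unit) in replicates 1, 2 and 3, by the distance of its middle from the Lefty1 start (x axis, kb), with Lefty1, Lefty2 and BC031781 drawn to scale below and other genes of the region not drawn. In every replicate the tallest pair of lines stands upstream of Lefty1, 1144.5 and 10120.5 bp from its start in replicate 3.

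Fst encodes Follistatin, which binds activins. Its 3-replicate site (chr13:115196638-115197052) was intergenic, 52091 bp downstream of the start, with Ndufs4 as the nearest gene at 18545 bp, and scored 171.91, 146.5 and 285.67 at percentiles 81.6, 77.4 and 96.1. A second Fst peak, 27494.5 bp downstream, scored 163.75 in replicate 3, at percentile 91.4, and was not called in the others. Nog, the gene of the BMP antagonist Noggin, had no peak in any replicate. Chrd, for Chordin, had a site in replicates 2 and 3 with 51.93 and 64.42, which lay 83 bp from the start of Fam131a. Grem1, for Gremlin, had a site in the same replicates with 60.43 and 126.51, and 85.4% of its 50-base stretches are multi-copy. Neither site lay near the start of its gene.

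Bmp1, which despite its name is a metalloprotease that cleaves Chordin and procollagens, had a site 24946.5 bp upstream (chr14:70944849-70945172), 416.5 bp from the start of Reep4. It scored 181.69, 51.61 and 86.01, at percentiles 82.8, 5.56 and 74.5. The replicate 2 score stood just above the threshold of 50, so that the site was the least even of the 14. Bambi, a decoy receptor without a kinase domain, had 1 peak, in replicate 3, with 88.92.

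**Figure D3:**
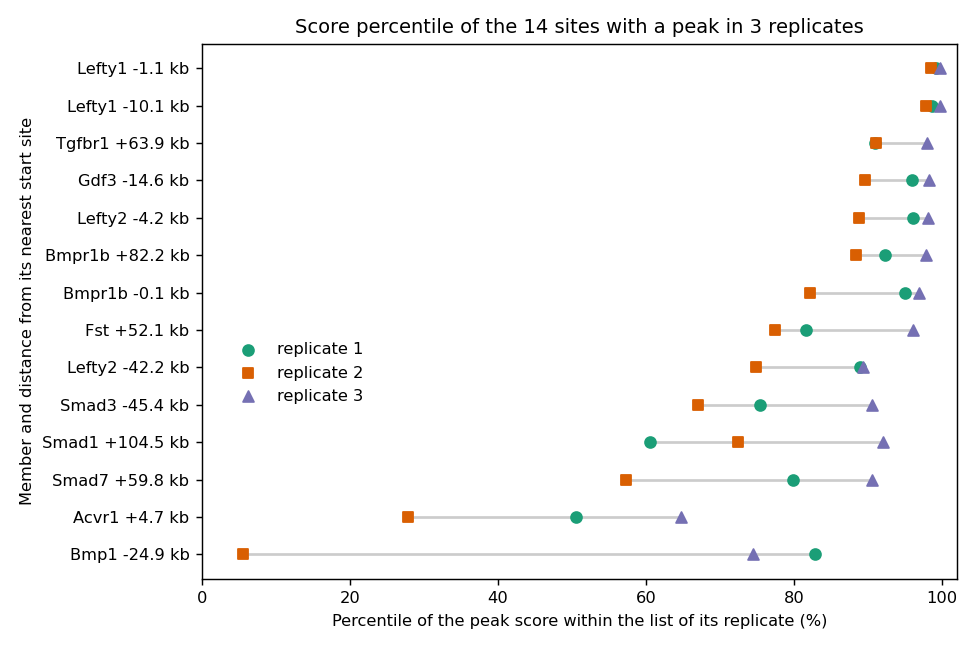
Percentile of the peak score within the list of each replicate (x axis, %) for the 14 sites with a peak in 3 replicates, ordered by their lowest percentile and named by the nearest gene of the list (y axis); grey lines join the lowest and highest replicate. The Lefty1 sites lie above 97 in every replicate, and the Bmp1 site spans 5.56 to 82.8.

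Over the 14 sites the median percentile was 89.9 in replicate 1, 79.8 in replicate 2 and 96.5 in replicate 3. All 3-replicate sites had medians of 82.6, 65.1 and 92.8. The replicates ranked the 14 sites alike, with a Spearman correlation of the scores of 0.855 between replicates 1 and 2, 0.855 between 1 and 3 and 0.947 between 2 and 3 (14 sites of the same libraries). Over all 3-replicate sites it was 0.698, 0.668 and 0.908. Replicate 2, with the shortest list, gave the lowest percentile for 12 of the 14 sites.

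Per length of window, the 45 genes had 2.04 of the 3-replicate sites per Mb, 14 in 6.87 Mb, against 2.49 per Mb over the windows of all protein-coding genes. The ligands had 0.393, the receptors 1.81, the Smads 2.34 and the antagonists 8.69 per Mb. That last value is 5 sites in 0.576 Mb, 4 of them at the Lefty locus. The median window was 131 kb long for the list and 115 kb for all genes.

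Of the 45 genes, 2 (Bmpr1b and Lefty1, 4.44%) had a 3-replicate site within 2000 bp of their own start, a promoter site, against 4.79% of all genes. In 2 (Bmpr1b and Acvr1, 4.44%) the middle of a site lay in the gene body, against 7.42%. By nearest start, with no limit on distance, 12 of the 45 (26.7%, interval 16.0 to 41.0) were the nearest gene of at least 1 site, against 16.5%. Of the 14 sites, 6 (42.9%, interval 21.4 to 67.4) lay at the promoter of some gene, listed or not. Of the others, 1 lay in an exon, 2 in introns and 5 between genes. Promoters took 25% of the 4102 sites in the windows of all protein-coding genes, a share within that interval. No site of the 14 was mostly multi-copy, against 17.0% of those 4102.

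**Figure D4:**
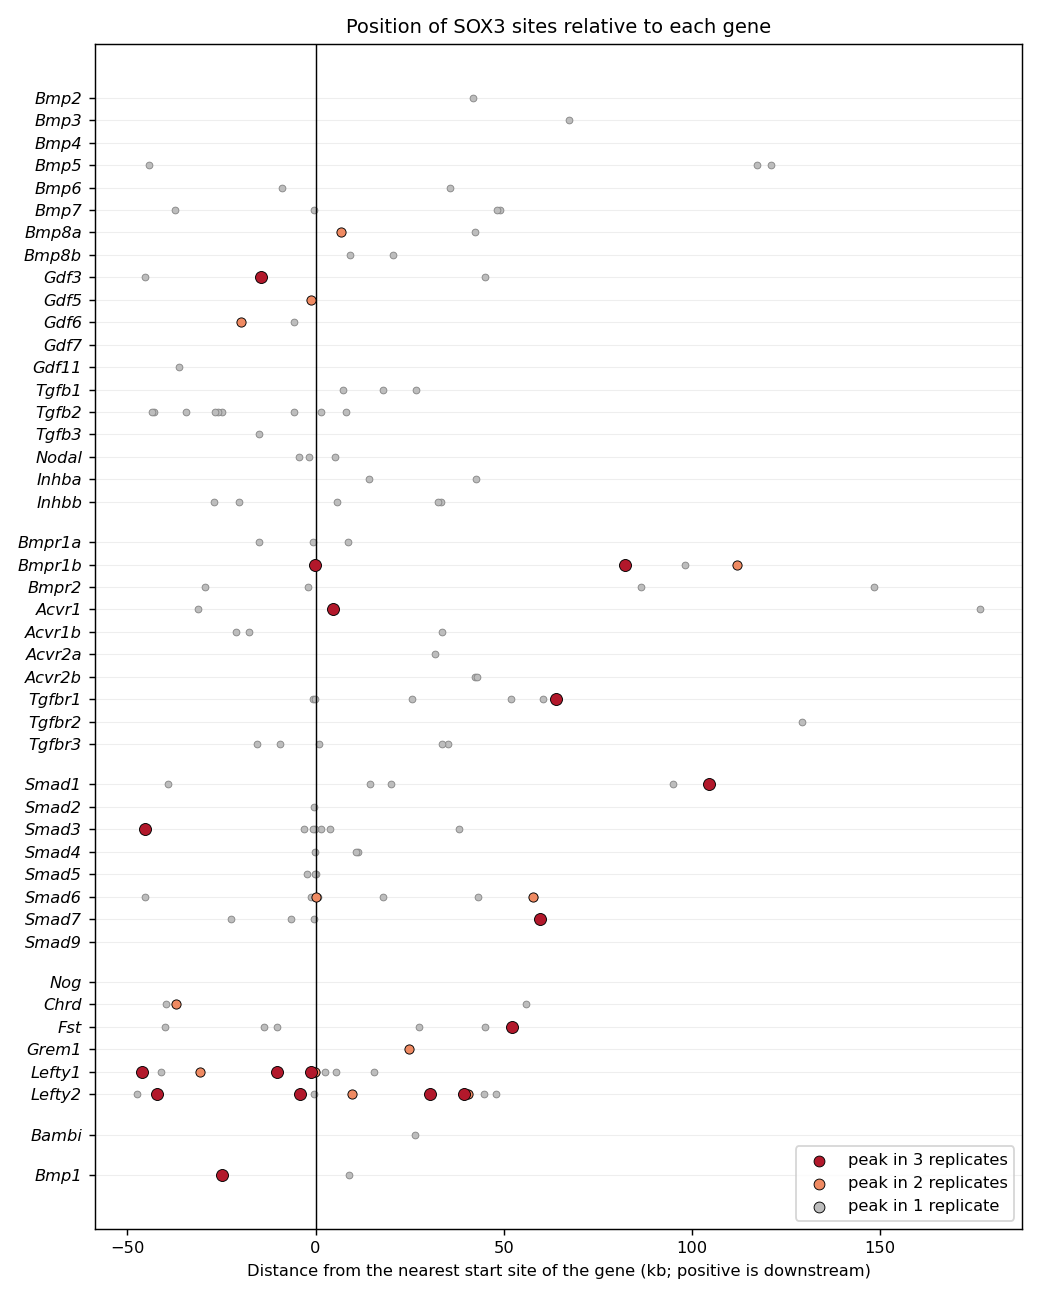
Distance of each SOX3 site from the nearest annotated start of the gene (x axis, kb, positive downstream) for the 45 genes (y axis), coloured by the number of replicates with a peak. The sites with a peak in 3 replicates scatter from 46157 bp upstream to 104528 bp downstream, and only those of Bmpr1b and Lefty1 lie within 2000 bp of a start.

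The width of the window changed which classes had sites. Within the gene body alone, 4.44% of the list and 8.8% of all genes had a 3-replicate site, and with 100 kb these were 35.6% and 42.1%. Ligands lay below all genes at each width, with 0%, 5.26%, 5.26% and 15.8% at 0, 20, 50 and 100 kb. Smads went from 0% at 20 kb to 37.5% at 50 kb. Antagonists went from 0% with no flank to 66.7% at 100 kb.

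**Figure D5:**
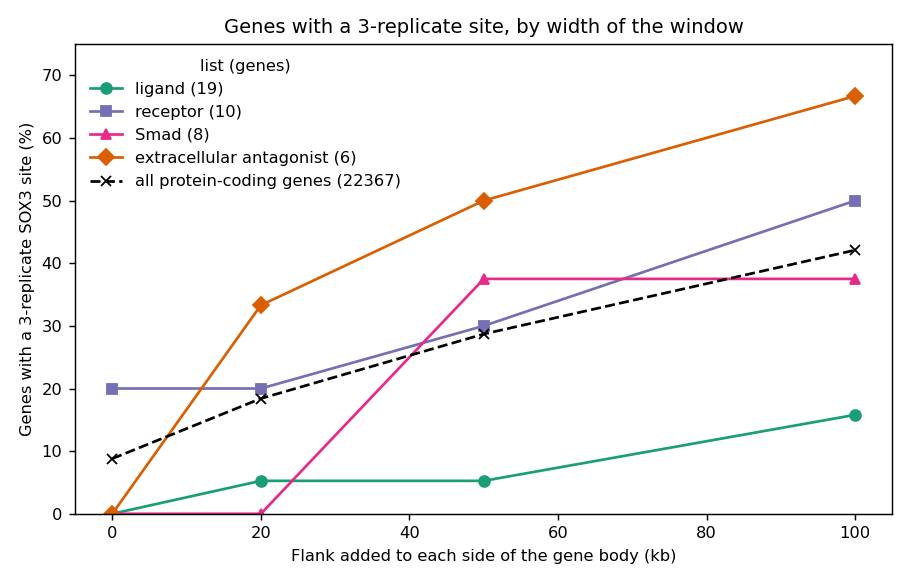
Share of genes with a 3-replicate SOX3 site (y axis, %) against the flank added to each side of the gene body (x axis, kb), for the ligands, receptors, Smads and antagonists and for all 22367 protein-coding genes (dashed). The ligand line ends at 15.8% and the line of all genes at 42.1%; each class has few genes, so a single gene moves its line by a visible step.

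Most sites in the windows were seen in 1 replicate. Of the 134 sites, 14 (10.4%) had a peak in 3 replicates, 10 (7.46%) in 2 and 110 (82.1%) in 1, against 10.4%, 9.75% and 79.8% of all sites. Replicate 3 alone gave 77 of the 110 and replicate 1 alone gave 33. Their median percentile was 33.8 in replicate 3 and 31.8 in replicate 1. With replicate 1 left out, sites of replicates 2 and 3 were found in the windows of 16 genes (35.6%, against 37.3% of all genes), the new ones being Bmp8a, Gdf6, Smad6, Chrd and Grem1. With replicate 2 left out there were 13 (28.9%, against 39.4%), with Gdf5 and Smad6 added. With replicate 3 left out the same 11 remained.

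Sites of replicate 1 alone lay at promoters more often than those of replicate 3 alone. Of the 33 of replicate 1, 20 (60.6%, interval 43.7 to 75.3) lay within 2000 bp of the start of a protein-coding gene, against 37.5% of such sites in the windows of all genes. For replicate 3 it was 11 of 77 (14.3%, 8.17 to 23.8), against 13.1%. Starts of the listed genes themselves accounted for 14 of the 20 and 6 of the 11. Counting peaks of any replicate, 17 of the 45 genes (37.8%, interval 25.1 to 52.4) had a site with its middle within 2000 bp of their own start, against 29.8% of all protein-coding genes. For Bmp7, Tgfb2, Nodal, Bmpr2, Tgfbr1, Smad2, Smad4 and Smad5 every peak at the own promoter came from replicate 1 alone. For Bmpr1a, Tgfbr3, Smad7 and Lefty2 it came from replicate 3 alone. The part of either library in the result was not tested.

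Beyond the window, 7 further sites had a listed gene as the nearest start. The strongest lay 116572.5 bp downstream of the start of Inhbb, an activin subunit gene, with 1126.26, 717.57 and 1165.62 at percentiles 99.3, 98.8 and 99.6, on the level of the Lefty1 sites. Others were 205003 bp upstream of Bmp2, 398992 bp upstream of Acvr2a, 74137 bp upstream of Smad1, 124773 bp downstream of Chrd, and 755215.5 and 816036 bp downstream of Inhba. They fall outside the rule by which the sites were taken. At such distances the nearest gene is a label of position.

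Other genes of the pathway had 3-replicate sites in 24 of 57 windows (42.1%, interval 30.2 to 55.0). That interval lay above the background of 28.7%, but this list too was chosen with earlier results of these data known. Without the known targets of the pathway the count was 18 of 49 (36.7%, interval 24.7 to 50.7), which spans the background of 28.7%. These genes were listed by name. The windows of the 57 held 4.14 of the 3-replicate sites per Mb, and 3.68 without the targets, against 2.49 over all protein-coding genes. In the annotation 0 of the 57 were missing. Of 20 further secreted regulators 8 had a site, of 10 other receptors or co-receptors 4, of 10 other ligands 3 and of 9 intracellular regulators 3. Among known targets of the pathway, Id1, Id2, Id3 and Id4 each had a site, and Msx1 and Msx2 had none. Hfe2, a BMP co-receptor gene, had the most sites with 5, of which 3 were mostly multi-copy, and Ltbp3, for a TGF-beta binding protein, had 3.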

How the data were processed

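SOX3 ChIP-seq was done in 3 replicates. As listed in the submitters' processing notes, reads were aligned to mm9 with Bowtie 1.0.0. MACS was then run by the authors on every replicate apart, with the input as control and a p-value limit of 1e-05, and its version is not given in the sources used here. The deposited score of a peak is its negative log10 p-value multiplied by 10, without normalization between replicates.

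Genes and starts came from GENCODE vM1 on the NCBIM37 reference, the same assembly as mm9, in which 0 peaks ran past a chromosome end. A peak was mostly multi-copy when more than 50% of its 50-base stretches occur more than once. Intervals are 95% Wilson intervals and cover counting error only, and no test was run, since there is 1 condition.

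The genes and lists were chosen with earlier results of these data known. Every gene is accounted for. Sites were described by replicate when they had a peak in 3 replicates and were the best of a gene, lay within 2000 bp of its start or lay in its body; the remaining 3-replicate sites were described too, after their values were seen. Sequences followed a rule (the best site of each class and promoter sites), and those of 2 Lefty sites, Acvr1 and the Bmpr1b intron were added after values were seen. The site finding was tested on simulated data, as was the word search, except for the SOX core and the joined word. Alternatives are given in the closing section, and some neighbouring and target genes are not reported here. Scripts ran in Python 3.11.15, with pysam 0.24.0 for the genome, scipy 1.17.1 for intervals, numba 0.67.0 and numpy 2.4.6 for the counts of stretches, and matplotlib 3.10.9 for figures.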

Additional observations from a re-analysis of the deposited data

How the results depend on the processing

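The counts of genes with a 3-replicate site depended on the width of the window and less on how replicates were joined. Of 78 recomputed counts, 61 stayed within 1.5 times the value given above, and medians were not recomputed. The 11 genes of the list became 7 at a p-value of 1e-10 or less, where Acvr1, Smad1, Smad7 and Bmp1 were lost (15.6%, against 15.2% of all genes), and became 2 with no flank (4.44%, against 8.8% of all genes) and 5 with a flank of 20 kb (11.1%, against 18.4%). The 14 sites became 3 with no flank, 7 with 20 kb and 23 with 100 kb. With no flank the ligands, Smads and antagonists with a site each became 0, and the Smads were 0 also with 20 kb and 1 at a p-value of 1e-10 or less. With 100 kb the ligands became 3 (15.8%) and the receptors 5 (50%), against 42.1% of all genes, and the ligands were also 3 by nearest start site, against 16.5%. Leaving out 1 replicate in turn gave 1 to 3 of 19 ligands and 3 to 5 of 6 antagonists, with both upper values reached without replicate 1. The shares of all genes were 37.3%, 39.4% and 29.4% without replicates 1, 2 and 3. The other alternatives were equal numbers of peaks (the best 8096 of each list, which left 9 genes, 20% against 21.9% of all genes), midpoints within 300 bp, peaks that share 50% of their length both ways, each covered stretch counted and removal of multi-copy peaks, and none of these moved a count past 1.5 times. Depth is unknown, so a gene with no peak is one where none was called, not one shown to be free of SOX3.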
